A study of Mus musculus with 40 samples.

Results

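The genes described here are the 44 mouse collagen genes whose symbol has the form of Col, a number, a and a number, from Col1a1 to Col28a1, out of 18024 genes measured. The rule that picks them uses the name and not the values, but it was chosen with earlier results of these data known. RNA was sequenced from pancreas, kidney, ovary, heart and small intestine of mice of the C57BL/6j strain, taken 60 days after birth and 24 h after p53 was acutely activated. Each tissue gave 3 control libraries of the genotype Mdm2+/- Cag-CreERTg, called Tg, and 5 libraries of the genotype Mdm2FM/- Cag-CreERTg, called FMTg, in which Mdm2 was lost. Both genotypes carry an Mdm2 null allele and the Cre transgene under the ubiquitous Cag promoter, so the controls are not wild type and recombination was not limited to one cell type. The same 3 Tg mice supplied every control library, and 10 FMTg mice supplied the others, so replicate numbers do not pair Tg with FMTg mice.

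Collagens are proteins of 3 chains wound into a triple helix, and each gene encodes 1 chain. Most are secreted, while 4 of the genes here encode transmembrane collagens. Fibrillar collagens form the cables of connective tissue, type IV collagens form the sheet under epithelia and around vessels, and type VI collagen forms beaded filaments between cells and fibrils. FACIT collagens sit on fibril surfaces, and multiplexins such as types XV and XVIII anchor to basement membranes. In most organs fibroblasts make the fibrillar chains, while endothelial cells, epithelia and pericytes make type IV. In human cells p53 is known to raise P4HA2, which hydroxylates collagen chains, with more release of fragments of types IV and XVIII that restrain vessel growth.

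Values are normalised reads, that is reads per gene divided by the size factor of the library, recovered from the deposited log2 values. Levels of different genes are compared only per kb of the principal transcript. The libraries held 7.16 to 29.0 M reads, and collagens took 0.0922% to 1.46% of them. Cdkn1a, which encodes the p53-induced cell cycle inhibitor p21, was higher in FMTg by 0.79 to 3.02 on the log2 scale across the 5 tissues, and passed adjustment over all genes in pancreas and kidney. Mdm2, itself a p53 target, was higher by 0.77 to 2.00, and its count over the whole gene cannot show the loss of a part of it. FMTg replicates 4 and 5 of each tissue came from other mice than replicates 1 to 3 and detected fewer genes. Transcripts of 4 Y-linked genes summed to between 1583 and 4358 normalised reads in replicates 4 and 5 of pancreas, kidney, heart and small intestine and to 2534 in pancreas FMTg replicate 1, and to at most 62.1 elsewhere. The labels give no sex. Every Tg mouse gave an ovary library, as did the FMTg mice of replicates 1 to 3 except that of pancreas replicate 1. That mouse and the mice of replicates 4 and 5 outside ovary gave none. In pancreas, kidney, heart and small intestine, sex and genotype therefore cannot be fully told apart when all libraries are compared. A fit with only mice that gave an ovary library leaves out the mice with high Y-linked sums, at the cost of fewer FMTg libraries. The collagen genes' median difference, FMTg minus Tg on the log2 scale, was then 0.47 in pancreas and 0.00 in kidney. It was 0.59 in heart and 0.31 in small intestine. In bulk tissue, fewer cells of a type and less RNA per cell cannot be told apart.

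Col4a3 and Col4a4 encode the α3 and α4 chains that join with α5 in the mature glomerular basement membrane, and they are transcribed in opposite directions from neighbouring start sites. The sites lie 72 bases apart on chromosome 1 in GENCODE M21 on GRCm38, and the 71 bases between them, read from the RefSeq promoter table of GRCm38.p6, are shown because both chains were kidney transcripts here and moved together in the libraries described below.
Col4a3 and Col4a4, chr1:82586850-82586920, plus strand: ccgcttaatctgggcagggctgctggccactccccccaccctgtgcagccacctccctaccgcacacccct
The stretch is 69.0% G and C. The CCAAT motif, the GGGCGG motif and the TATAAA motif were absent from it on both strands, as was a p53 half-site.

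Half-sites of the p53 consensus were also looked for in the RefSeq promoter windows of the collagen genes, since p53 was activated in these mice. The windows run from 250 bases before to 50 after a start site, and 35 of the 44 genes had at least 1, in 38 windows. A half-site was present in 4 of the 38 windows, or 10.5%, against 8.36% of 32851 windows of all genes. They belonged to Col17a1, Col20a1, Col6a6 and Col9a2. The sites that lie wholly upstream of the start are shown with flanks, with the half-site in capitals and each sequence on the strand of its gene.
Col20a1, chr2:180986439-180986468, plus strand: aatggatgcaGAACAAGCTTtcttgtcagg
Col6a6, chr9:105828280-105828309, minus strand: cagagagtgaAGGCAAGCTCcaagcacgcc
Col9a2, chr4:121039330-121039359, plus strand: taaaggacccAGACAAGCTTgcccggggaa
In Col9a2 a further half-site overlaps the one shown. GGGCGG was present in 60.5% of collagen windows and 35.7% of all windows, CCAAT in 34.2% and 37.4%, and TATAAA in 13.2% and 13.6%. These are letter matches and say nothing of binding.

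The first question the design answers is where each collagen gene is transcribed in the controls. Of 41 collagen genes tested over the 15 Tg libraries, 36 differed between the 5 tissues at a Benjamini-Hochberg adjusted p below 0.05, beside 93.8% of all genes tested (limma with the mouse as a block). The ovary stood out: 16 of the 41 were above each of the other 4 tissues there, or 39.0%, beside 8.27% of all genes. Another 5, or 12.2%, were above all others in kidney, beside 7.89% of all genes, and only Col7a1 was so in pancreas, beside 7.76%. No collagen gene was above all others in heart, where 11.4% of all genes were, or in small intestine, where 11.6% were. The ovarian count fell to 9 without Tg mouse 3 and to 10 when the FMTg libraries were compared instead, and the genes called in those 2 fits were all among the 16. Levels between tissues depend on the size factors, which were 0.388 to 0.487 in Tg pancreas and 0.796 to 1.25 in Tg ovary. Collagens took 0.19% to 0.30% of the reads in Tg pancreas and 0.73% to 1.38% in Tg ovary. The tissue comparisons were not repeated with library totals.

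**Figure D1:**
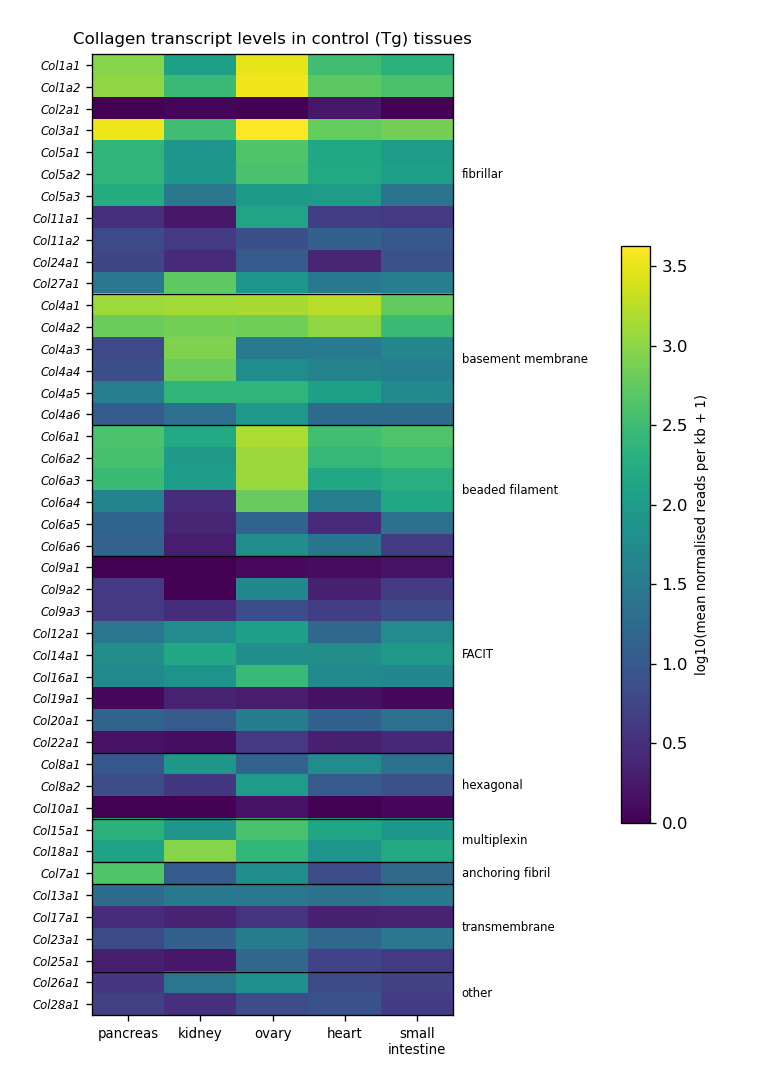
Mean level of each of the 44 collagen genes in the 3 Tg libraries of each tissue, as log10 of normalised reads per kb of principal transcript plus 1, with genes ordered by family. Types I, III, IV and VI are bright in ovary, while Col4a3, Col4a4, Col18a1 and Col27a1 are brightest in kidney and Col7a1 in pancreas.

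Among the fibrillar chains, Col3a1 was the most abundant collagen transcript per kb in ovary, pancreas and small intestine. It stood at 4239 ± 460 normalised reads per kb in ovary (SD, n = 3), 3385 ± 674 in pancreas and 741 ± 168 in small intestine, and the difference of ovary from pancreas, 0.34 ± 0.26 SE on the log2 scale, did not pass (adjusted p = 0.280 by limma). Col1a1 and Col1a2, which together make type I collagen of bone, skin and tendon, reached 3094 ± 477 and 3591 ± 711 in ovary and passed above pancreas, next in order, by 1.73 ± 0.28 and 1.77 ± 0.23 on the log2 scale. Kidney was lowest for both. The ratio of Col1a1 to Col1a2 also differed by tissue, at 0.896 to 1.06 in the Tg libraries of pancreas and 0.367 to 0.460 in those of kidney. Col5a1 and Col5a2, which nucleate fibrils, and the cartilage-type chain Col11a1 were also above all other tissues in ovary. Ovarian Col11a1 was 198, 1521 and 1298 normalised reads in the 3 Tg libraries, with no more than 55.2 in any Tg library of another tissue. Col27a1, a fibrillar chain of developing cartilage, was instead a kidney transcript, 2.59 ± 0.45 on the log2 scale above ovary. Col24a1, Col5a3 and Col11a2 differed between tissues with no single tissue above the rest. Col5a3 was highest in pancreas, at 175 per kb, and did not pass above heart, next in order.

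Col4a1 and Col4a2, the chains of nearly all basement membranes, were among the 5 most abundant collagens per kb in pancreas, kidney and heart, and Col4a1 also in ovary and small intestine. Col4a1 led in heart, at 1750 ± 239 normalised reads per kb, and in kidney, at 1344 ± 187. In the order heart, ovary, kidney and pancreas no neighbours passed the test for Col4a1, and small intestine, at 577 ± 194, was below pancreas. The kidney chains Col4a3, at 853 ± 83.3 per kb, and Col4a4, at 655 ± 6.29, were 27.02-fold and 11.4-fold above ovary, the next tissue, on the log2 scale of the deposited values (adjusted p = 0.000472 and 0.0060 by limma). Col4a5, their partner, stood at 236 per kb in both kidney and ovary (difference 0.02 ± 0.45 on the log2 scale, adjusted p = 0.980). Col4a6, which pairs with α5 around smooth muscle, was highest in ovary, 4.20-fold above kidney.

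The type VI chains Col6a1, Col6a2 and Col6a3 followed type I, with ovary above every other tissue by 1.69 to 2.06 on the log2 scale. Col6a1 was the fourth collagen of ovary per kb, at 1523 ± 193, the third of small intestine, at 425 ± 67.0, and the fifth of heart, at 333 ± 109. Col6a2 was the fifth of small intestine, at 320 ± 43.4. Col6a4 was at 4276, 5855 and 3245 normalised reads in ovary and 657, 1267 and 1258 in small intestine, a difference of 2.08 ± 1.28 on the log2 scale that did not pass (adjusted p = 0.186 by limma). In pancreas and heart it was high only in Tg mouse 1, at 899 against 33.5 and 7.01 and at 699 against 38.4 and 54.9. Col6a5 and Col6a6 differed between tissues, and small intestine and ovary led without passing the next tissue.

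Of the FACIT chains, Col12a1, Col16a1, Col20a1 and Col9a2 were above all other tissues in ovary and Col14a1, a fibril-surface collagen, in kidney. Col14a1 stood at 147 per kb in kidney and at 60.6 to 91.1 in the others. Both multiplexins had a leading tissue. Col15a1 was highest in ovary, at 379 per kb and 0.80 ± 0.30 on the log2 scale above pancreas. Col18a1, whose fragment endostatin restrains vessel growth, was highest in kidney, at 937 ± 124, and was the second collagen there. Col7a1, the anchoring fibril collagen best known from skin, was at 3874, 4136 and 4185 normalised reads in Tg pancreas and 11.9-fold above ovary. Col8a2 and the membrane-bound Col25a1 were ovarian. Col8a1, Col19a1, Col23a1 and Col26a1 differed between tissues with none above the rest. Col9a3, Col28a1, Col13a1, Col22a1 and Col17a1 did not pass the test.

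A few chains were close to absent. Col10a1, of growth plate cartilage, was the only collagen gene tested in no tissue, with 5 reads in the Tg libraries and 8 in the FMTg libraries of ovary, 2 in the Tg libraries of small intestine and 2 in the FMTg libraries of kidney. Col2a1 and Col9a1, cartilage chains, passed the filter on low values only in heart, where their reads summed to 11 and 4 over the Tg libraries and 30 and 35 over the FMTg libraries. Col19a1 was tested in kidney and ovary, Col9a2 in all but kidney, and Col25a1 in all but pancreas. The other 38 were tested in all 5 tissues.

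The main comparison asks whether 24 h of p53 activation changed collagen transcripts. No collagen gene passed the adjusted threshold in any tissue, with 39 tested in pancreas, 40 in kidney, 41 in ovary, 42 in heart and 40 in small intestine. Among all genes the share called was 0.446% in pancreas, 0.616% in kidney, 0% in ovary, 0.019% in heart and 0% in small intestine, so the design had few calls to give anywhere. A voom fit on the recovered reads also called no collagen gene in any tissue. The smallest adjusted p of a collagen gene was 0.165 in pancreas, 0.531 in kidney, 0.616 in ovary, 0.315 in heart and 0.990 in small intestine (limma). At an unadjusted p below 0.05, 6 collagen genes were higher and none lower in pancreas, 15.4% beside 8.42% of all genes. In heart 10 were higher and none lower, 23.8% beside 6.33%. In kidney 3 were lower and none higher, 7.50% beside 8.32%. In ovary 1 was higher and 1 lower, 4.88% beside 6.36%, and in small intestine none passed, beside 2.41%. When a voom fit was scaled by library totals instead of size factors, 0 of 39 passed in pancreas, beside 4.19% of all genes. The median difference in pancreas was then 0.11 for collagen genes and -0.20 for all genes. In heart 6 of 42 passed in that fit, beside 4.26%.

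The members' median difference, FMTg minus Tg on the log2 scale, was 0.27 in pancreas, -0.13 in kidney, -0.01 in ovary, 0.45 in heart and 0.12 in small intestine. Over all genes tested it was -0.05, -0.05, -0.02, -0.01 and -0.05 in the same order. When single libraries were left out, the members' median ran from 0.17 to 0.45 in pancreas, -0.23 to -0.09 in kidney, -0.18 to 0.10 in ovary, 0.20 to 0.57 in heart and -0.13 to 0.32 in small intestine. The direction was kept in pancreas, kidney and heart and not in ovary or small intestine. Libraries of FMTg and Tg did not overlap, with FMTg higher, for 7 members in heart beside 3.42% of all genes, 5 in pancreas beside 4.68%, 1 in ovary beside 3.43% and 1 in small intestine beside 1.69%. In kidney no member was so, beside 4.17%. No member had every FMTg library below every Tg library in any tissue, while 5.05% of all genes did in pancreas, 4.56% in kidney, 2.38% in ovary, 3.49% in heart and 1.19% in small intestine.

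**Figure D2:**
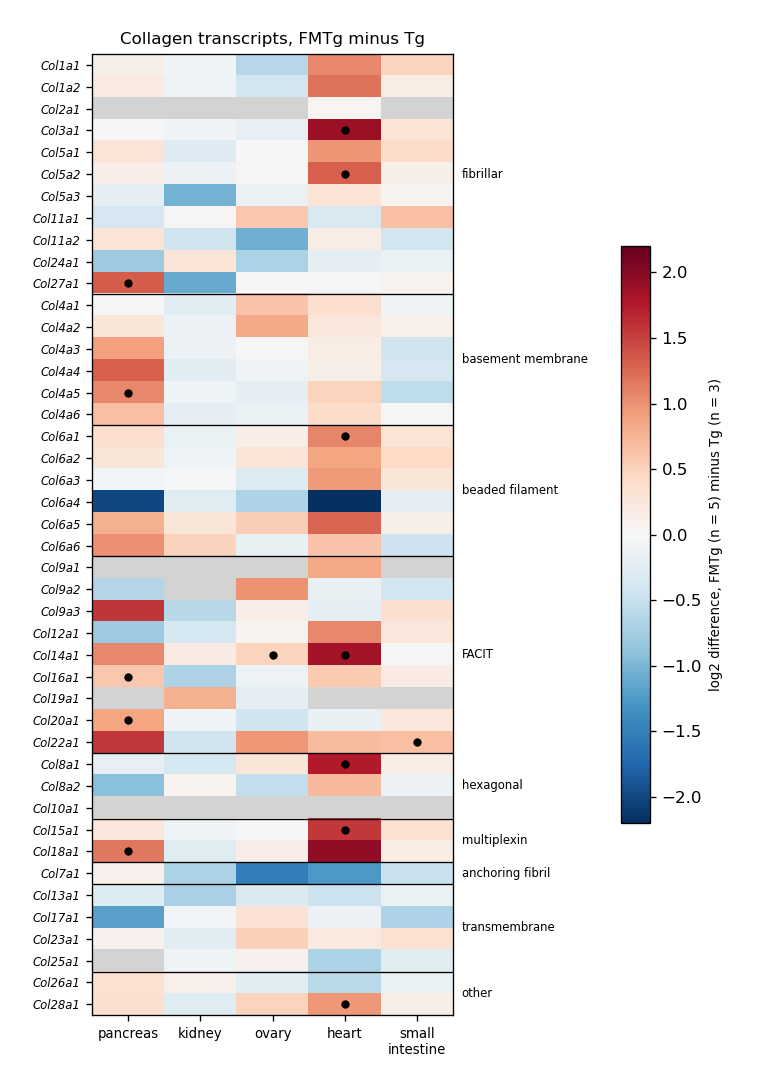
Difference of each collagen gene, FMTg (5 libraries) minus Tg (3 libraries), on the log2 scale for 5 tissues, with genes ordered by family. A black dot marks genes whose FMTg libraries all lie above the Tg libraries, and grey marks genes not tested. The dots sit mostly in heart (7) and pancreas (5), and none of the differences passed adjustment over all genes.

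In heart, 1 library stood apart for the collagens. FMTg replicate 2 gave 1.46% of its reads to collagen genes, against 0.218% to 0.452% in the other 7 heart libraries. Its Col3a1 level of 56645 normalised reads compared with 5212 to 10776 in the other FMTg hearts and 2231 to 4586 in Tg hearts. Col1a1 was at 19717 there and at most 3888 in any other heart, and Col1a2 at 28942 and at most 5760. The same library held 4427 normalised reads of Lox, which cross-links collagen, against 216 to 461 elsewhere. It held 14455 of the matrix protein gene Postn, against 446 to 1573, and 1509 of the protease inhibitor gene Timp1, against 34.4 to 215. Its 7 fibroblast markers summed to 44187, against 15986 to 36726, and its 7 endothelial markers to 56659, against 21584 to 36380. Its 6 cardiomyocyte markers summed to 237264, against 501727 to 869737. The part of these cell markers in the collagen values was not tested. The differences of the heart collagens described next are given with and without this library.

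Col15a1, a vessel and muscle basement membrane collagen, had the smallest p of any member in heart. It was at 760, 885 and 444 normalised reads in Tg and at 2105, 2810, 1824, 1673 and 1668 in FMTg. Every FMTg heart was above every Tg heart, and replicates 4 and 5 were in the same range as the others. The difference was 1.55 ± 0.26 on the log2 scale (2.94-fold, adjusted p = 0.315 by limma), and 1.43 ± 0.23 without replicate 2 (adjusted p = 0.188).

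Col14a1 was at 427, 459 and 301 in Tg hearts and at 992, 4824, 978, 951 and 1181 in FMTg hearts. Again the groups did not overlap, and replicate 2 was far above the other FMTg hearts. The log2 difference was 1.82 ± 0.52 (adjusted p = 0.760), and 1.38 ± 0.17 without replicate 2 (adjusted p = 0.0961 by limma). Col3a1 differed by 1.88 ± 0.70 with replicate 2 and 1.30 ± 0.31 without it. Col8a1, a short-chain collagen of vessel walls, was at 246, 363 and 251 in Tg and 447 to 4950 in FMTg, and differed by 1.75 ± 0.69 and 1.16 ± 0.24. Col6a1 was at 1879, 1143 and 1069 in Tg and 2190 to 4788 in FMTg, and differed by 1.08 ± 0.29 and 0.89 ± 0.20. All of these passed an unadjusted p below 0.05 in both fits and none passed the adjusted threshold in either.

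Col5a2 and Col28a1 completed the 7 members without overlap in heart. Col5a2 differed by 1.31 ± 0.62 with replicate 2, where its unadjusted p was 0.0648 by limma, and by 0.77 ± 0.15 without it. Col28a1 differed by 0.96 ± 0.33 and 0.85 ± 0.33, with an unadjusted p below 0.05 in both fits. So did Col6a2, at 0.87 ± 0.27 and 0.76 ± 0.26, with overlapping groups. Col6a3, at 0.94 ± 0.41, and Col6a5, at 1.28 ± 0.53, had an unadjusted p below 0.05 only with replicate 2 in the fit. Without it they differed by 0.84 ± 0.43 and 1.07 ± 0.53, with unadjusted p of 0.0892 and 0.0793 by limma. In these 3 type VI chains it was Tg mouse 1 that overlapped, with 1525 of Col6a2, 2447 of Col6a3 and 35.6 of Col6a5. The lowest differences in heart were those of Col6a4, at -2.19 ± 1.29, Col7a1, at -1.26 ± 0.94, and Col25a1, at -0.70 ± 0.43, and none had an unadjusted p below 0.05. Without replicate 2 they were -2.77 ± 1.24, -1.72 ± 0.88 and -0.46 ± 0.35, and again none did. The count of 10 became 3 without Tg replicate 2, where 2.78% of all genes passed, and 4 without Tg replicate 3, where 2.51% did. It was 15 without FMTg replicate 4, beside 5.35% of all genes, and 12 of 41 without FMTg replicates 2 and 4, beside 6.07%. Without FMTg replicates 4 and 5, a fit that keeps replicate 2, it was 17 of 41, beside 5.46%. The median difference in that fit was 0.59. The median difference fell from 0.45 to 0.20 without FMTg replicate 2.

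**Figure D3:**
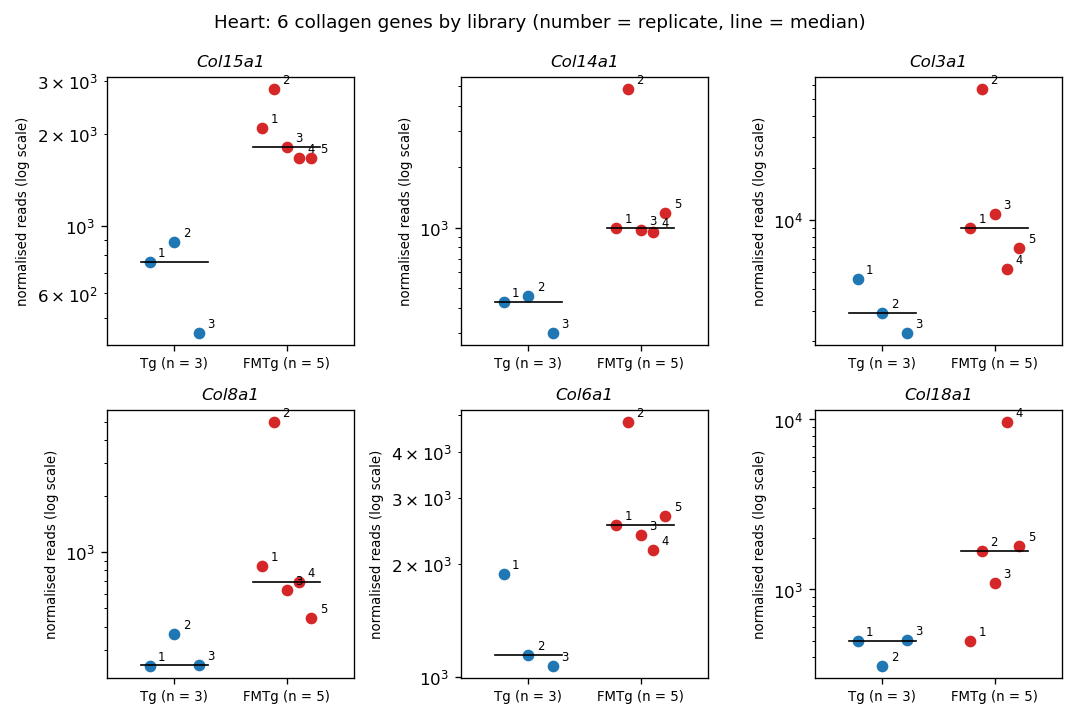
Normalised reads (log scale) of 6 collagen genes in each heart library, with Tg (n = 3) and FMTg (n = 5) side by side, replicate numbers beside the points and medians as lines. Col15a1 is at 1668 or more in every FMTg heart and at 885 or less in every Tg heart, replicate 2 is far above the rest for Col14a1, Col3a1 and Col8a1, and replicate 4 for Col18a1.

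The largest difference in heart was that of Col18a1, at 1.95 ± 0.79. Col18a1 was at 495, 354 and 504 in Tg hearts and at 498, 1685, 1089, 9611 and 1805 in FMTg hearts. The highest value, in FMTg replicate 4, was in the library where 6 hepatocyte markers summed to 1180918 normalised reads. They summed to 171597 in FMTg replicate 5 and to between 302 and 1120 in the other 6. FMTg replicates 1, 2 and 3 were among these 6, with sums of 1120, 707 and 464. Col18a1 is strongly expressed in liver. The part of these markers in the difference was not tested. Without replicate 4 the difference was 1.34 ± 0.43 (adjusted p = 0.881 by limma), and without replicate 2 it was 1.96 ± 0.87 (adjusted p = 0.620). Col18a1 overlaps Slc19a1, Col9a3 overlaps Tcfl5 and Col10a1 overlaps Nt5dc1, and without a stated strand setting reads in those overlaps are uncertain.

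In pancreas Col18a1 had the smallest p of any member. It was at 665, 549 and 843 in Tg and 1482, 1601, 2572, 1097 and 1211 in FMTg, with no overlap, and the difference was 1.16 ± 0.27 on the log2 scale (2.24-fold, adjusted p = 0.165 by limma). Hepatocyte markers summed to 313 to 511 normalised reads in Tg and 786 to 2145 in FMTg pancreas, so they too did not overlap between the groups, and their part in the difference was not tested. Kidney tubule markers were high in FMTg replicate 3, as described below, and without that library the difference was 0.97 ± 0.20 (adjusted p = 0.120).

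Col27a1 was at 222, 209 and 164 in Tg pancreas and 323 to 1036 in FMTg, a difference of 1.33 ± 0.35, and 1.07 ± 0.26 without replicate 3. Col4a5, at 1.05 ± 0.37, and Col16a1, at 0.59 ± 0.23, also had FMTg above Tg in every library and an unadjusted p below 0.05. Col14a1, at 380, 505 and 311 in Tg and 664, 1220, 1059, 505 and 836 in FMTg, differed by 1.05 ± 0.30, with 1 FMTg library inside the Tg range. Col6a6 differed by 1.00 ± 0.42. Col20a1 was above Tg in every FMTg library by little in replicates 1 to 3, at 75.2 to 78.8 against 63.6 to 72.4, and by much in replicates 4 and 5, at 314 and 258.

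Pancreas FMTg replicate 4 was the shallowest library, at 7.16 M reads, and 28 of the 44 collagen genes had a read in it, against 33 to 41 in the other pancreas libraries. It had no read of Col9a3, a chain of cartilage type IX collagen, where a count of 0 allows up to 18.5 normalised reads. The other FMTg libraries had 80.8, 94.7, 58.8 and 85.9, and the Tg libraries 8.21, 12.9 and 7.01. Col9a3 had the largest rise in value in pancreas, 1.58 ± 1.13, which did not pass. Without replicate 4 it was 2.53 ± 0.35 and passed (adjusted p = 0.0220 by limma), and it was the only member that did. Without replicates 4 and 5 it was 2.49 ± 0.33 (adjusted p = 0.0296). The count of members with an unadjusted p below 0.05 in pancreas was 13 of 40 without replicate 4, where 11.8% of all genes passed, and 3 of 39, or 7.69%, without Tg replicate 3, beside 4.41% of all genes. The next largest difference was that of Col22a1, at 1.56 ± 1.04, and the lowest were those of Col6a4, at -1.997 ± 1.47, Col17a1, at -1.20 ± 0.77, and Col8a2, at -0.92 ± 1.09.

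In kidney 32 of 40 members had a lower mean in FMTg and 8 a higher one. The median over all genes was itself negative, at -0.05, and the share of all genes with a lower mean was not counted. All 6 type IV chains were lower, by 0.10 to 0.25 on the log2 scale, and none passed. Col27a1 had the lowest difference, at -1.12 ± 0.39 (adjusted p = 0.543 by limma). It was at 1742, 4732 and 5531 in Tg and at 2218, 1936, 2206, 1100 and 1156 in FMTg. Tg replicate 1 lay among the FMTg libraries, so the groups overlapped. Col5a3 differed by -1.04 ± 0.36 and Col13a1, a membrane-bound collagen, by -0.71 ± 0.28. The highest were Col19a1, at 0.78 ± 0.72, Col6a6, at 0.52 ± 0.43, and Col24a1, at 0.28 ± 0.26. Col19a1 was at 56.1 and 37.4 in replicates 4 and 5 and at 3.04 to 7.85 in the other 6 kidneys. Without replicates 4 and 5 the members' median in kidney was 0.00. Of the type IV chains, Col4a3, Col4a5 and Col4a6 were then higher, at 0.01, 0.10 and 0.12. Col4a1, Col4a2 and Col4a4 stayed lower, at -0.08, -0.15 and -0.10. The count of 3 members with an unadjusted p below 0.05 became 1 without Tg replicate 1 or Tg replicate 3, where 5.17% and 5.37% of all genes passed. It was 5 of 40, or 12.5%, without FMTg replicate 2, beside 13.3% of all genes.

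In ovary Col1a1 had a difference of -0.63 ± 0.21 (adjusted p = 0.616 by limma), with 15789, 17867 and 21388 in Tg and 11852, 16245, 11455, 10307 and 9999 in FMTg, of which 1 was inside the Tg range. Col4a2 was 0.83 ± 0.36 higher, with 3188, 4642 and 5020 in Tg and 5624, 6704, 4422, 12476 and 11344 in FMTg. The 2 highest were replicates 4 and 5, in which 7 adipocyte markers summed to 36332 and 45143 normalised reads, against 1673 to 8308 in the other 6 ovaries, and fibroblast markers to 20689 and 22370, against 9300 to 13266. The part of these markers was not tested. Without those replicates the difference in Col4a2 was 0.39 ± 0.24. Col14a1 was at 402, 418 and 354 in Tg and 456 to 930 in FMTg, without overlap, at 0.50 ± 0.24. The other extremes were Col9a2, at 0.98 ± 0.64, Col22a1, at 0.95 ± 0.52, Col7a1, at -1.50 ± 0.83, Col11a2, at -1.08 ± 0.84, and Col24a1, at -0.69 ± 0.57.

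In small intestine the members' differences ran from -0.68 to 0.67. Col11a1, at 0.67 ± 0.98, Col22a1, at 0.66 ± 0.39, and Col1a1, at 0.48 ± 0.42, were highest, and Col17a1, at -0.68 ± 0.72, Col4a5, at -0.56 ± 0.83, and Col7a1, at -0.50 ± 0.45, lowest. Col22a1 was the only member without overlap, at 12.3, 17.0 and 14.3 in Tg and 17.8, 18.3, 30.9, 57.9 and 19.3 in FMTg. Its lowest FMTg value was close to the highest Tg value.

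Over the 5 tissues together, a model of all 40 libraries with the mouse as a random block called no collagen gene on the mean difference, beside 0.729% of 16185 genes. At an unadjusted p below 0.05, 5 of 41 members were higher and none lower, beside 12.1% of all genes in either direction. Col14a1 had the largest difference of these, at 0.69 ± 0.21 (adjusted p = 0.182 by limma), with groups apart in ovary and heart. It was the only member without overlap in more than 1 tissue. Its mean difference passed in 7 alternative fits and not in 11 others, which included voom and each single Tg mouse or tissue left out. Among the 7 were those that left out the heart library of FMTg replicate 2 (0.62, adjusted p = 0.0186), 4 libraries that stood apart, which were heart FMTg replicates 2 and 4, pancreas FMTg replicate 3 and ovary Tg replicate 1 (0.61, adjusted p = 0.0406) and FMTg replicates 4 and 5 of every tissue (0.80, adjusted p = 0.0174). The differences by tissue were 1.05 ± 0.30 in pancreas, 0.19 ± 0.16 in kidney, 0.50 ± 0.24 in ovary, 1.82 ± 0.52 in heart and 0.02 ± 0.17 in small intestine.

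Col15a1 was the only member whose difference varied between tissues past the adjusted threshold (adjusted p = 0.0315 by limma), beside 0.192% of all genes. At an unadjusted p below 0.05 there were 8 members, beside 8.46% of all genes. Col15a1 was higher in FMTg heart, as above, and differed by 0.26 ± 0.16 in pancreas, -0.08 ± 0.26 in kidney, -0.01 ± 0.19 in ovary and 0.34 ± 0.21 in small intestine. The test no longer passed without Tg mouse 1 (adjusted p = 0.117), Tg mouse 2 (0.0947), Tg mouse 3 (0.228) or the heart library of FMTg replicate 2 (0.0649), nor in the voom fit (0.0825).

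Several single libraries carried collagen transcripts together with markers of another organ. Col4a3 was at 2872 and Col4a4 at 2436 normalised reads in pancreas FMTg replicate 3, against 6.16 to 57.3 and 25.7 to 111 in the other 7 pancreas libraries. That library held 103665 normalised reads of 6 kidney tubule markers, against 111 to 1241. In heart FMTg replicate 3, Col4a3 was at 1207, against 154 to 347, with 35130 of the kidney markers, against 279 to 6669. In small intestine Tg replicate 1, Col4a3 was at 918 and the kidney markers at 43548. In FMTg replicate 4 they were at 84.6 and 58.8, and in replicate 5 at 21.8 and 22.5. In the other small intestine libraries the kidney markers were at 190 to 19285, and their Col4a3 levels are not listed here. Over the pancreas libraries without replicate 3 the Col4a3 difference was -0.33 ± 0.74, against 0.91 ± 1.45 with it.

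Col7a1 was high beside pancreatic acinar markers in 1 ovary library. It was at 1361 in ovary Tg replicate 1, where 6 acinar markers summed to 2111877, and at 147 and 184 in the other Tg ovaries, where they summed to 27833 and 7813. The ovarian difference of -1.50 ± 0.83 was -0.50 ± 0.70 without that library. Within pancreas Col7a1 was highest in FMTg replicate 4, at 8434, and lowest in replicate 3, at 2142, which also had the highest and lowest acinar sums, 17935773 and 4513297. Replicate 4 also had the smallest size factor of all libraries, 0.162, which scales both values. In Tg pancreas the order differed, and replicate 3 had the lowest acinar sum, 6092699, with the highest Col7a1 level. The part of other tissue in the levels of Col4a3, Col4a4 and Col7a1 outside kidney and pancreas was not tested.

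**Figure D4:**
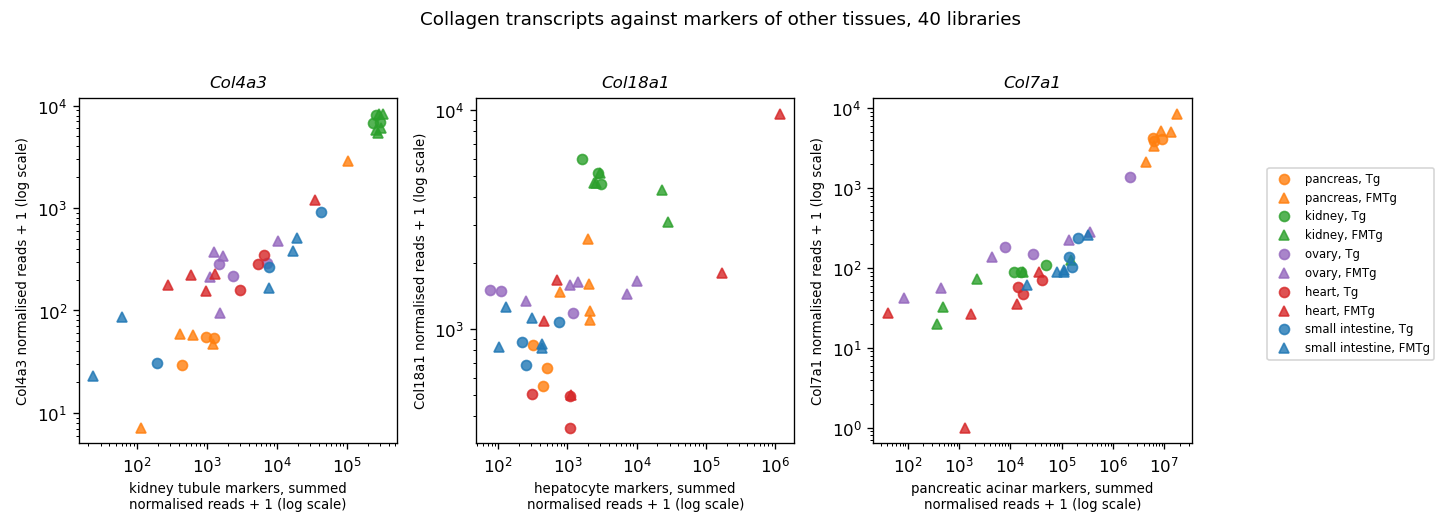
Normalised reads plus 1 of Col4a3, Col18a1 and Col7a1 in all 40 libraries against the summed markers of kidney tubule, hepatocytes and pancreatic acinar cells, on log axes, coloured by tissue with circles for Tg and triangles for FMTg. Pancreas FMTg replicate 3 lies next to the kidneys for Col4a3, heart FMTg replicate 4 is the highest point for Col18a1, and ovary Tg replicate 1 is the highest ovary for Col7a1.

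Paired type IV genes can be compared within a library, where depth and scaling cancel. Col4a1 and Col4a2 overlap at their 5′ ends, with start sites 21 bases apart on chromosome 8, and since the strand setting of the counting is not given, reads there cannot be assigned with certainty. Their ratio was 1.67 to 2.31 over the 15 Tg libraries and 1.73 to 2.39 over FMTg replicates 1 to 3 of all tissues. In FMTg replicates 4 and 5 it was 1.38 to 1.72 over 10 libraries. In pancreas, kidney, ovary and small intestine those 2 libraries lay below all others of the tissue, as in kidney, where they were at 1.39 and 1.51 against 1.79 to 2.06. In heart the Tg ratios, 1.67 to 1.80, overlapped theirs, 1.66 and 1.68. No test was made, because the split of the FMTg mice was seen in the data. The α3 to α4 ratio was 1.03 to 1.21 in every kidney library of both genotypes, and ran from 0.1 to 1.77 in the other tissues. For the ratio of Col4a5 to Col4a6, FMTg replicates 4 and 5 lay below all others only in small intestine. They were at 0.797 and 1.16 there, against 1.89 to 3.63.

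**Figure D5:**
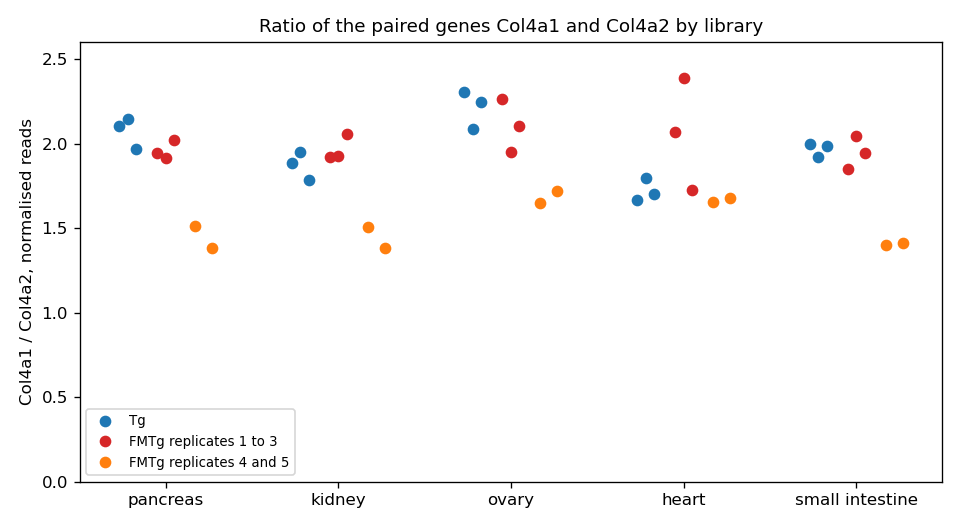
Ratio of Col4a1 to Col4a2 normalised reads in each of the 40 libraries by tissue, for Tg (blue), FMTg replicates 1 to 3 (red) and FMTg replicates 4 and 5 (orange). The orange points lie at 1.38 to 1.72 and are below the other points of their tissue except in heart, where they meet the Tg points.

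The genes that process collagen were followed in 5 lists. Of 21 genes for chain modification and folding, 14 for procollagen cleavage and cross-linking, 17 for breakdown and its inhibitors, 9 collagen receptors and 13 TGF-beta signals and matrix response genes in the table, 1 passed in 1 tissue. It was Mmp15, a membrane-type matrix metalloproteinase, in kidney, at 61.2, 69.8 and 88.2 normalised reads in Tg and 138, 179, 187, 225 and 246 in FMTg, without overlap. Its rise was 1.33 ± 0.21 in log2 units, with an adjusted p of 0.0222 by limma. The direction was kept when any library was left out, but the adjusted p was 0.146, 0.159 and 0.0529 without Tg replicates 1, 2 and 3, and 0.0573 and 0.0543 without FMTg replicates 3 and 5, and 0.0724 by voom. In the other 4 tissues Mmp15 differed by -0.32 to 0.72 and did not pass.

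P4ha2, the prolyl hydroxylase that p53 raises in human cells, was not higher in any tissue. Its differences were -0.50 ± 0.22 in pancreas, -0.26 ± 0.13 in kidney, -0.40 ± 0.23 in ovary, -0.0008 ± 0.14 in heart and -0.29 ± 0.52 in small intestine. Serpinh1, the collagen chaperone HSP47, differed by 0.56 ± 0.17 in heart and 0.43 ± 0.15 in kidney, with unadjusted p of 0.00913 and 0.0212 by limma and no call after adjustment. The collagenase gene Mmp14 differed by -0.25 to 0.40, and the receptor genes Ddr1 and Itga1 by -0.07 to 0.19 and -0.34 to 0.30. Timp1 differed by 1.91 ± 0.77 in heart, where replicate 2 was highest, and by -0.91 to -0.80 in the other 4 tissues. Lox differed by -0.84 to 0.58. None of these passed. In heart the median of each list was positive, from 0.28 for receptors to 0.56 for cleavage and cross-linking, beside -0.01 for all genes. These list medians include FMTg replicate 2, the library that stood apart, and were not recomputed without it.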

How the data were processed

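RNA-seq libraries were aligned with STAR 2.6.0b to GRCm38 and processed with DESeq2 (version not given), per the submitters' processing notes. The counter, annotation and strand setting are not given in the sources used here. The authors deposited 1 table for all 40 libraries of 13 mice, in log2 units after a variance-stabilising transformation. Inverting them gave whole reads for 100% of values (tolerance 0.01, largest distance 1.19e-07), at 7.16 to 29.0 M reads per library. Of 18024 gene IDs, 17079 matched GENCODE M21 with version, including 42 of the 44 collagen genes.

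Genotypes were compared in each tissue with limma 3.58.1 (statmod 1.5.0, R 4.3.3) on the deposited log2 values with a variance trend, for genes with a mean at least 1 above the lowest value, 1.65, adjusted by Benjamini-Hochberg over all genes tested and called below 0.05. Differences are FMTg minus Tg, ± SE, and are compressed for genes with few reads. The 40-library model used the mouse as a random block (correlation 0.249), and the 15 Tg libraries were compared between tissues with the mouse as a fixed block. Named genes are members called in any fit, the 3 highest and 3 lowest differences in each tissue, the 5 most abundant per kb in each control tissue, members without overlap and fixed pathway genes, of which 1 is not reported here. Members and lists were chosen with earlier results of these data known, and the hepatocyte and Y-linked lists after values were seen. Scripts were tested on simulated data. The counts of genes above all other control tissues, and the fits without heart FMTg replicates 2 and 4 or without 4 libraries, were also added after values were seen. P-values of the comparisons within a tissue measure the spread between these mice. Those between control tissues, with the mouse as a fixed block, measure how tissue differences vary from mouse to mouse. Those of the 40-library model also rest on variation between libraries of the same mouse.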

Additional observations from a re-analysis of the deposited data

Results flagged for a closer look

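In 23 of 202 groups of 5 FMTg libraries, 1 library lay far from the others for a collagen gene, where chance gives about 1 in 20, or 10.1. Of these, 9 were heart replicate 2. Its normalised reads were 1414 for Col12a1 (others 191 to 292), 4824 for Col14a1 (951 to 1181), 249 for Col23a1 (64.1 to 91.6), 26773 for Col4a1 (11696 to 14619) and 11855 for Col5a2 (1402 to 2078). They were 4788 for Col6a1 (2190 to 2699), 4950 for Col8a1 (446 to 847) and 394 for Col8a2 (29.5 to 59.4), and Col6a6 was the only gene of the 9 that was low, at 169 (337 to 424).

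Pancreas replicate 4, the shallowest library, had 0 reads of Col23a1, Col24a1 and Col9a3 and 314 normalised reads of Col5a3 (972 to 1480). Heart replicate 4 had 0 of Col24a1, heart replicate 5 had 0 of Col9a3, and kidney replicate 4 had 0 of Col25a1 and 1.09 of Col8a2 (16.74 to 20.54). Kidney-type chains were high beside kidney tubule markers, at 1207 for Col4a3 in heart replicate 3 and 2436 for Col4a4 in pancreas replicate 3. The others were 930 for Col14a1 in ovary replicate 5, 5142 for Col6a1 in ovary replicate 3, 431 for Col6a2 in kidney replicate 3 and 38.8 for Col26a1 in small intestine replicate 3.

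The genotype difference of Col15a1 varied between tissues (adjusted p = 0.0315 by limma over 40 libraries), with every FMTg heart above every Tg heart.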

How the results depend on the processing

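Counts and medians within each tissue were recomputed under other settings (filters, no variance trend, library weights, voom with recovered size factors or library totals, replicate numbers as a block, replicates 4 and 5 of FMTg left out, mice without an ovary library left out, and each replicate left out). The counts over tissues had no stricter filter, library totals or single FMTg replicates left out, and those between control tissues had no library weights or library totals. Counts of collagen genes changed stayed at 0 in kidney, ovary, heart and small intestine under all of them. No median moved by more than its spread (SD) between FMTg libraries. That spread was larger than the size of the median in each tissue, as in pancreas, 0.59 against 0.27, and heart, 0.50 against 0.45. The rule therefore cannot show that a median was stable. With library weights the pancreas median was 0.57, and without Tg replicate 2 that of small intestine changed sign, to -0.13. In pancreas the count was 7 with library weights, where 568 genes in all were called against 68, 1 without FMTg replicates 4 and 5, where 109 were, and 0 to 1 with single replicates left out. The count on the mean over tissues, 0, became 3 without the mouse block, 4 with library weights, 2 without FMTg replicates 4 and 5, and 1 with only mice that gave an ovary library and in the replicate block. It was also 1 without the heart library of FMTg replicate 2 and without 4 libraries that stood apart, both chosen after seeing the data. The count that differed between tissues, 1, became 10 with library weights, 2 without small intestine, and 0 without the mouse block, without the variance trend, by voom, without FMTg replicates 4 and 5, with only mice that gave an ovary library, in the replicate block, and without pancreas, kidney, ovary, heart, the heart library or the 4 libraries. It was 0 to 0 with single Tg mice left out. The cause was not tested. The control tissue count stayed within 1.5 times of 36. Genes above all other control tissues, 16 in ovary, numbered 10 in FMTg libraries and 9 to 16 with single mice left out, those in pancreas 1 to 2, and those in heart, 0, numbered 1 with no filter, 1 in FMTg libraries and 0 to 1 with single mice left out. The replicate block changed no other call. Replicate numbers of Tg and FMTg name different mice, and in no tissue did all 3 same-numbered pairs correlate above 0.1. Precision is limited by 3 Tg mice in each tissue and, for chains with few reads, by depth, as in pancreas FMTg replicate 4 at 7.16 M reads.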
